A study of Mus musculus with 8 samples.

Results

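Axon guidance ligands and receptors are cell-surface and secreted proteins named for steering growing nerve fibres, and many of them also act on blood cells. The genes were those of an Agilent mouse array whose probe accessions carry symbols beginning Sema, Plxn, Epha, Ephb, Efna, Efnb, Robo, Slit or Unc5, together with Nrp1, Nrp2, Ntn1 and Ntn4. The rule gave 68 genes on 86 probes, of 20145 symbols and 55681 probes on the array. Of these, 66 are guidance genes, and 2 (Unc50 and Unc5cl) match the letters only and encode no guidance receptor. RNA came from dendritic cells sorted out of mouse thymus by maturation and by Sirpa, an inhibitory surface receptor, in a study of CD40 in their maturation. The 4 groups, of 2 arrays each, were Sirpa-positive mature cells (arrays 1 and 6), Sirpa-positive immature cells (3 and 5), Sirpa-negative mature cells (2 and 8) and Sirpa-negative immature cells (4 and 7), numbered as in the sample titles. The labels give no strain, age, genotype or treatment, no sort marker besides Sirpa, and no statement that both samples of a group are from different animals. The p-values therefore reflect sample-to-sample spread that may be technical.

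Semaphorins signal mainly through plexins, with neuropilins as co-receptors for the secreted class, and ephrins signal through Eph receptors on the neighbouring cell. Slits act on Robo receptors, and netrins act on Unc5 receptors and DCC. In the immune system several of them guide dendritic cell and thymocyte migration or modulate contacts between dendritic cells and T cells.

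Arrays differed in brightness, with the 75th percentile of signal between 147 and 313 intensity units, lowest on Sirpa-positive mature array 6. Of the spots, 52.9% to 65.5% stood well above background (61.9% to 65.5% in row 1 of the slide, 52.9% to 57.9% in row 2), and each row held 1 array of every group. As a check of the labels, Sirpa exceeded its Sirpa-negative level 28.3-fold in Sirpa-positive mature and 114-fold in Sirpa-positive immature cells. Ccr7, a chemokine receptor typical of mature dendritic cells, stood 71.7-fold (Sirpa-positive) and 51.5-fold (Sirpa-negative) higher in mature cells. All 7 markers of conventional dendritic cells stood well above background on all 8 arrays. Of 11 macrophage and monocyte markers, 8 were higher in Sirpa-positive than Sirpa-negative mature cells and 11 among immature cells. Of 13 thymocyte and T cell markers, 4 rose with maturation in Sirpa-positive and 10 in Sirpa-negative cells. Of 12 endothelial markers, Cdh5, Tek, Tie1, Sox17 and Sox18 were above background on neither array of any group. Each group had 5 of the 12 above background on both arrays, except Sirpa-negative mature cells with 6.

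Levels below are log2 of the processed signal over the array's 75th percentile, so that 0 is that percentile and a step of 1 is a 2-fold difference on that probe. To be tested, a probe had to stand well above background on the whole pair of arrays of 1 or more groups, and the brightest probe stood for a gene. This left 42 of the 68 members and 24149 genes or accessions in all. Another 11 members were above background on some arrays but on both arrays of no group, and 15 on none. The families differed in how many members were seen: 14 of 20 semaphorins, 10 of 11 plexins and neuropilins, 7 of 8 ephrins and 8 of 14 Eph receptors were tested. Of the Slits and Robos only Slit2 was tested, 1 of 7, and of the netrins and Unc5 receptors only Ntn1, 1 of 6. Robo1, Robo2, Robo3, Robo4, Slit3, Unc5b, Unc5c, Sema3c, Sema3d, Sema5a, Efna1, Epha3, Epha8, Epha10 and Unc5cl were not well above background on any array.

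Of the 42 tested members, 17 passed limma's test (Benjamini-Hochberg adjusted p under 0.05 over all genes) in at least 1 comparison. The share of all genes that passed in at least 1 comparison was not counted, so this number has no background beside it. Shares of all genes are given below for each comparison. They were 6 semaphorins, 8 plexins and neuropilins, 2 ephrins and 1 Eph receptor. Counting a gene once per comparison gave 36 results. A bulk signal cannot tell fewer cells of a type apart from less RNA per cell.

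**Figure D1:**
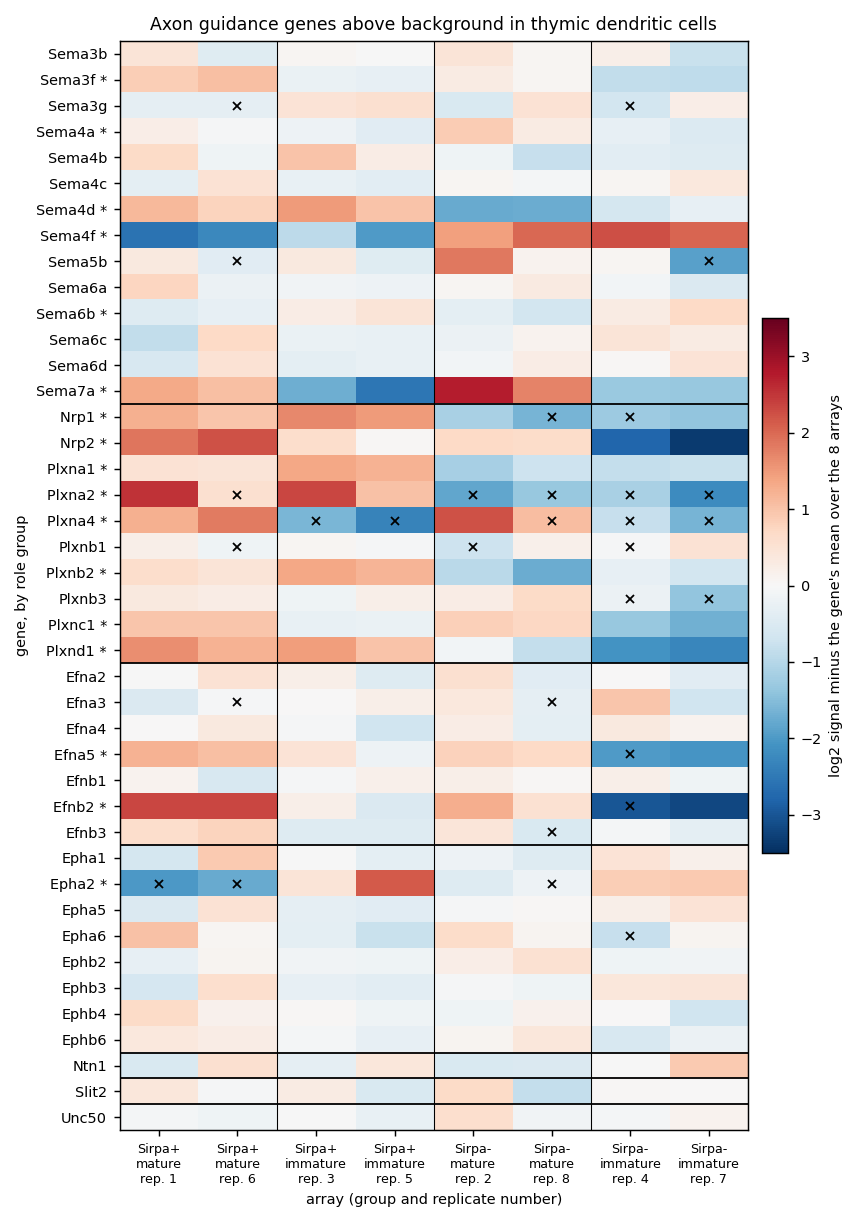
Tested members (rows, by role group) on the 8 arrays (columns, 2 per group). Colour is the log2 signal minus that gene's own mean over the 8 arrays, a cross marks an array where the probe was not well above background, and an asterisk marks the 17 members that passed in at least 1 comparison. The strongest contrasts lie in Sema4f, Sema7a, Efnb2 and the plexins and neuropilins, while most Eph receptors are pale throughout.

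The first question was what maturation changed in each subset. In Sirpa-positive cells 6 of 42 members rose, where 4.35% of all genes did, and 1 fell, where 2.53% of all genes did. In Sirpa-negative cells 9 members rose, against 9.22% of all genes, and 2 fell, against 7.24%. The share that rose was above the background in both subsets, and the share that fell was not. That background holds 24149 genes or accessions, of which 13867 carry a symbol, as every member does. A share over genes with a symbol alone is not given, so the part of annotation in the excess was not tested. The median difference of the 42 members was 0.27 in Sirpa-positive and 0.13 in Sirpa-negative cells on the log2 scale, beside 0.03 and -0.01 over all genes tested. Sema7a, Sema3f, Nrp2, Plxnc1, Plxna4 and Efnb2 passed in both subsets, each upward. The T cell markers named above moved the same way as these genes, with summed log2 levels of 5.68 to 5.79 in Sirpa-positive mature against 5.29 to 5.5 in Sirpa-positive immature cells, and 5.38 to 5.64 in Sirpa-negative mature against 3.62 to 3.66 in Sirpa-negative immature cells. The endothelial list summed to 3.83 to 4.04 in Sirpa-positive mature against 3.28 to 3.45 in Sirpa-positive immature cells. In Sirpa-negative cells it summed to 3.32 to 3.82 in mature against 1.93 to 2.33 in immature cells. Of its 7 tested genes, 1 rose and 1 fell in Sirpa-positive cells, and 2 rose and 1 fell in Sirpa-negative cells. The B cell list summed to 2.91 to 2.98 in Sirpa-positive mature against 2.24 to 2.28 in Sirpa-positive immature cells, and to 1.13 to 1.38 in Sirpa-negative mature against 0.14 to 0.88 in Sirpa-negative immature cells. The part of T cells, endothelial cells and B cells in the results was not tested.

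Among the ligands that passed with maturation, Sema7a and Efnb2 had the widest differences in both subsets. Sema7a, a membrane-anchored semaphorin that binds integrins and plexin C1, changed most in Sirpa-positive cells, and Efnb2 in Sirpa-negative cells. Sema7a levels were 1.53 and 1.24 in Sirpa-positive mature cells, against -1.51 and -2.33 in Sirpa-positive immature cells. In the Sirpa-negative subset it had 2.96 and 1.95 in mature cells, against -1.09 and -1.13 in immature cells. All 4 mature arrays thus lay above all 4 immature arrays. The rise was 9.93-fold in Sirpa-positive (3.31 ± 0.393, log2 difference ± SE, n = 2 arrays per group, limma adjusted p = 0.00523) and 11.8-fold in Sirpa-negative cells (3.56 ± 0.393, adjusted p = 0.00184). Within slide rows 1 and 2 the difference was 3.87 and 2.76 in Sirpa-positive cells and 4.09 and 3.04 in Sirpa-negative cells.

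Efnb2, a transmembrane ephrin and ligand of the receptor EphB4, had 1.54 and 1.52 in Sirpa-positive mature cells, against -0.60 and -1.32 in Sirpa-positive immature cells. It had 0.46 and -0.26 in Sirpa-negative mature cells, against -3.80 and -4.0 in Sirpa-negative immature cells, where 1 of the 2 arrays was well above background. The order of the 4 groups had no overlap between neighbours. The gene rose 5.61-fold with maturation in Sirpa-positive cells (2.49 ± 0.326, adjusted p = 0.00717) and 16.0-fold in Sirpa-negative cells (4.0 ± 0.326, adjusted p = 0.000756). Its second probe, above background on neither Sirpa-negative immature array, rose by 2.40 and 4.39 when every probe was tested singly (adjusted p = 0.00243 and 0.000394).

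Sema3f, a secreted semaphorin that binds neuropilin 2, had -0.19 and 0.00 in Sirpa-positive mature cells, against -1.29 and -1.34 in Sirpa-positive immature cells. Sirpa-negative mature cells had -0.77 and -0.99, against -1.93 and -1.94 in Sirpa-negative immature cells. The change was smaller than for Sema7a but wider than the spread of each pair, 2.33-fold (adjusted p = 0.0139) and 2.07-fold (adjusted p = 0.0127). Efna5, an ephrin held in the membrane by a lipid anchor, reached -0.93 and -1.02 in Sirpa-negative mature cells, against -3.72 and -3.79 in Sirpa-negative immature cells, where 1 of 2 arrays was above background. That rise was 6.87-fold (2.78 ± 0.258, adjusted p = 0.00102). In Sirpa-positive cells Efna5 had -0.52 and -0.68 in mature against -1.23 and -1.91 in immature cells, and the difference of 0.98 ± 0.258 did not pass (adjusted p = 0.0733), although it passed in 2 of 19 alternative settings.

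Sema4a, a membrane semaphorin of dendritic cells that takes part in T cell priming, had 4.68 and 4.08 in Sirpa-negative mature cells, against 3.51 and 3.34 in Sirpa-negative immature cells. The groups were apart by a margin close to the spread of the mature pair. The 1.94-fold rise passed narrowly (0.96 ± 0.262, adjusted p = 0.0473) and passed in 8 of 20 alternative settings. In Sirpa-positive cells Sema4a had 4.04 and 3.75 in mature against 3.63 and 3.40 in immature cells, which did not pass (adjusted p = 0.499).

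On the receptor side, Nrp2 codes for a co-receptor of secreted semaphorins and of vascular endothelial growth factors, known in human dendritic cells as a carrier of polysialic acid. Its levels were 4.19 and 4.55 in Sirpa-positive mature cells, against 2.94 and 2.36 in Sirpa-positive immature cells. In Sirpa-negative cells the values were 3.01 and 2.97 when mature, against -0.45 and -1.04 when immature. Sirpa-negative immature cells thus stood apart as the group with the lowest Nrp2. The rise was 3.29-fold in Sirpa-positive (1.72 ± 0.298, adjusted p = 0.0189) and 13.3-fold in Sirpa-negative cells (3.73 ± 0.298, adjusted p = 0.000713). A second probe for another Nrp2 transcript accession gave 1.89 and 4.27 (every probe tested singly, adjusted p = 0.0421 and 0.00134).

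Plxnc1, the plexin that binds Sema7a, had 3.72 and 3.70 in Sirpa-positive mature cells, against 2.47 and 2.51 in Sirpa-positive immature cells. It had 3.58 and 3.46 in Sirpa-negative mature cells, against 1.42 and 1.07 in Sirpa-negative immature cells. Ligand and receptor were thus both higher on all mature arrays. Plxnc1 rose 2.34-fold (1.22 ± 0.203, adjusted p = 0.0161) and 4.85-fold (2.28 ± 0.203, adjusted p = 0.00092). Its second probe gave 1.42 in Sirpa-positive cells, which did not pass (adjusted p = 0.129), and 2.79 in Sirpa-negative cells (adjusted p = 0.00875).

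Plxna4, a plexin that takes part in signals of secreted and class 6 semaphorins, had -3.12 and -2.55 in Sirpa-positive mature cells, against -5.96 and -6.68 in Sirpa-positive immature cells, where neither array was well above background. Sirpa-negative mature cells had -2.11 and -3.28, the second not well above background, against -5.15 and -5.98 in Sirpa-negative immature cells, both not well above background. Plxna4 met the filter only through the Sirpa-positive mature pair. Its place among the 6 members that rose in Sirpa-positive cells is therefore not independent of the filter. Where neither array of the dimmer group was above background, a fold is given as a bound: the brighter group's mean over a floor for the dimmer arrays, namely the dimmest signal still called well above background on each array or the probe's signal there, whichever is higher. Plxna4 was at least 2.93-fold higher in Sirpa-positive mature than immature cells (adjusted p = 0.0085) and at least 2.28-fold higher in Sirpa-negative ones (adjusted p = 0.00884). Both differences shrank under the normexp background correction with quantile scaling, to 0.49 and 0.50 on the log2 scale, and did not pass there (adjusted p = 0.125 and 0.0772). With the authors' deposited log2 values they were 0.84, which did not pass (adjusted p = 0.0532), and 0.87, which did (adjusted p = 0.0276). A second Plxna4 probe was well above background on 2 arrays and did not meet the filter. It had -3.83 and -4.11 in Sirpa-positive mature against -5.96 and -6.68 in Sirpa-positive immature cells. In Sirpa-negative cells its groups overlapped, with -3.34 and -4.58 in mature against -3.05 and -6.46 in immature cells.

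Plxnd1, the receptor of Sema3e, which acts on thymocyte migration in the thymus, had 2.01 and 1.30 in Sirpa-negative mature cells, against 0.05 and -0.16 in Sirpa-negative immature cells. That was a 3.29-fold rise (1.72 ± 0.307, adjusted p = 0.0111). The second Plxnd1 probe had 1.25 and 1.14 in mature against 0.86 and 0.58 in immature cells of this subset, a difference of 0.48 that did not pass (adjusted p = 0.167). The 2 probes therefore disagreed in the size of this change. In Sirpa-positive cells the difference was 0.19 ± 0.307 (adjusted p = 0.803).

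The members that fell were others. Epha2, a receptor of the A class ephrins, was not above background in Sirpa-positive mature cells (-5.13 and -4.88), against -2.68 and -0.99 in Sirpa-positive immature cells, and was at least 4.30-fold lower (adjusted p = 0.0124). The immature pair differed by more than a unit, with replicate 5 the higher. This fall passed in 16 of 19 alternative settings. It was lost with dim probes kept (adjusted p = 0.0605) and without either Sirpa-positive mature array. Over the settings the difference ran from -4.01 to -0.83 on the log2 scale, against -3.17 as fitted. In Sirpa-negative cells Epha2 had -3.57 and -3.32 in mature against -2.28 and -2.21 in immature cells, which did not pass (adjusted p = 0.15) but passed in 3 of 19 alternative settings.

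Sema4d (CD100), a membrane semaphorin that binds plexin B receptors and CD72, had 0.84 and 0.86 in Sirpa-negative mature cells, against 1.99 and 2.32 in Sirpa-negative immature cells. It fell 2.48-fold (-1.31 ± 0.251, adjusted p = 0.0142). In Sirpa-positive cells its levels overlapped, with 3.74 and 3.40 in mature and 4.08 and 3.61 in immature cells. Sema6b, a class 6 membrane semaphorin, had -1.27 and -1.56 in Sirpa-negative mature cells, against -0.63 and -0.23 in Sirpa-negative immature cells, and fell 1.98-fold (adjusted p = 0.0278). That result passed in 11 of 20 alternative settings and was lost in 9, among them the fit with dim probes kept (adjusted p = 0.0991), the fit of the compared arrays only (adjusted p = 0.0869) and 7 of the fits that left out 1 array. Its Sirpa-positive values were -1.38 and -1.22 in mature against -0.65 and -0.46 in immature cells, which did not pass (adjusted p = 0.115).

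**Figure D2:**
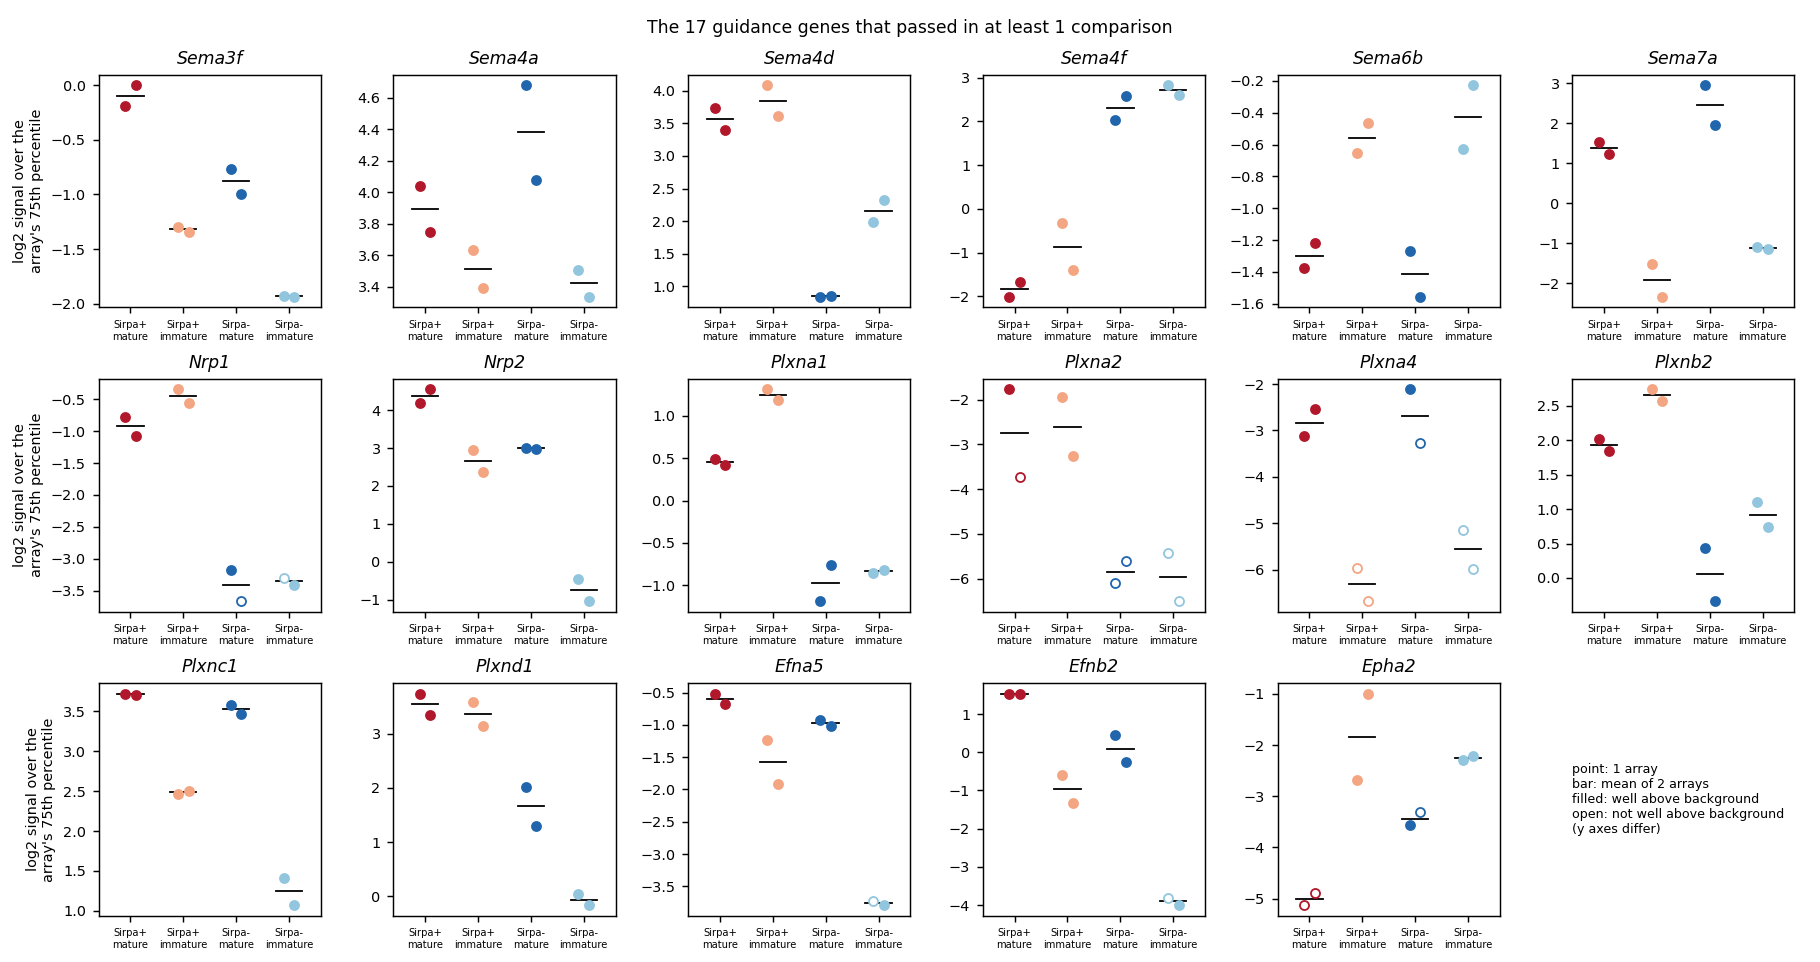
Log2 signal over the array's 75th percentile (y axis, a separate scale per gene) for the 17 members that passed in at least 1 comparison, by group (x axis). Each point is 1 array and each bar the mean of 2 arrays; open points were not well above background. Sema7a, Sema3f, Nrp2, Plxnc1, Plxna4 and Efnb2 are higher in mature than immature cells of both subsets, and Sema4f is lower in Sirpa-positive than Sirpa-negative cells.

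The counts for Sirpa-positive maturation rested on single arrays. Counts over all genes fell as well in each fit named here, so the lower counts are not particular to the members. Without Sirpa-positive mature array 6, limma called 0 of the 46 members then tested, 14 of them at an unadjusted p under 0.05, and 198 genes in all. Without Sirpa-positive immature array 3 the count was 3, and without array 5 it was 4. In Sirpa-negative cells, 7 members were called without mature array 2 and 7 without immature array 7.

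No member passed the test of the difference between the 2 maturation effects (0 of 24149 genes, 0% of all genes, limma; 7 members and 1947 genes at an unadjusted p under 0.05). The smallest adjusted p among members was 0.143, for Efna5. The larger rises of Nrp2, Efnb2, Efna5 and Plxnd1 in Sirpa-negative cells are therefore not shown to differ from those in Sirpa-positive cells.

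The promoters of the genes that rose in both subsets are shown because these members moved together, as far as RefSeq's promoter table (build GRCm38.p6) holds them. Each window runs from 250 bases before to 50 bases after the start, 300 bases in all, 5′ to 3′ on the gene's strand, and capitals mark the GC box GGGCGG, read on either strand. The windows are Efnb2 at chr8:8661193-8661492 on the minus strand, Nrp2 at chr1:62703067-62703366 on the plus strand, Plxnc1 at chr10:94944796-94945095 on the minus strand and Sema7a at chr9:57939862-57940161 on the plus strand.
Efnb2: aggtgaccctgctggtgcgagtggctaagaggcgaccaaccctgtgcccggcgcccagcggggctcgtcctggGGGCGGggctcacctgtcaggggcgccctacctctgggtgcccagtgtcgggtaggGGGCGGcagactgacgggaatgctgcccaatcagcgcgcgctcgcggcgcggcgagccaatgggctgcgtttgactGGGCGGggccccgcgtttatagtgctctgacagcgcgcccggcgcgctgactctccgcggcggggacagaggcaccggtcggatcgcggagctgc
Nrp2: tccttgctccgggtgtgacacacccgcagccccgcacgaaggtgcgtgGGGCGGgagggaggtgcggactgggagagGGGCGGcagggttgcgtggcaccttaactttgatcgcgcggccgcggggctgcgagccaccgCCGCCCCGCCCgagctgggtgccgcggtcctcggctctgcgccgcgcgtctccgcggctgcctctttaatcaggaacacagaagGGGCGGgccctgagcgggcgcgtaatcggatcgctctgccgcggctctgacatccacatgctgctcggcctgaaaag
Plxnc1: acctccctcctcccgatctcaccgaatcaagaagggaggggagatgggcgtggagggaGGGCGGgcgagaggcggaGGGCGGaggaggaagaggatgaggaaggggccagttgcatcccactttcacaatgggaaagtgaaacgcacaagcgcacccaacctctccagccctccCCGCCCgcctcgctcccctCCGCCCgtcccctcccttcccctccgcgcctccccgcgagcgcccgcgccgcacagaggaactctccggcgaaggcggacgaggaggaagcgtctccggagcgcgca
Sema7a: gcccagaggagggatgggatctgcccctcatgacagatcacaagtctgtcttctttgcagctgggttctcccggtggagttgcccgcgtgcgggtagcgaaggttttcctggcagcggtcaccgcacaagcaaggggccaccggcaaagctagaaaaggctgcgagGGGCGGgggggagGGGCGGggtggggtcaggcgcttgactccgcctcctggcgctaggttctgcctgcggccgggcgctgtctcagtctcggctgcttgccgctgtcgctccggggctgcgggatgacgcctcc

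These windows held 3, 5, 4 and 2 GC boxes, in the order printed, and 72.3%, 70.7%, 69.0% and 67.3% of their bases were G or C. Of the 14 members that passed in any comparison and have a window, 13 held a GC box in at least 1 window. Of all 59 members with a window 45 held it, so the box was not particular to the members that passed. Counted by window, 17 of the 21 windows of these 14 members held it, where 35.7% of all 32851 windows did. The NF-kB consensus was found in none (0) of the 4 printed windows and in 1 of the 21, against 8.46% of all windows. The interferon response core GAAANNGAA was found in Plxnc1 and in 3 of the 21 windows, against 8.56%, and the AP-1 site TGANTCA in 2 of the 21, against 7.81%. The PU.1 core GAGGAA occurred 4 times in the Plxnc1 window, in 8 of the 21 windows and in 28.3% of all windows. The TATA box TATAAA was found in Efnb2 alone of the 21 windows, against 13.6% of all windows. Motifs were searched on both strands, and in the 4 windows 1 pair of matches shared bases, a pair of GC boxes in Nrp2. A match is a run of letters and was not tested as a binding site.

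The next question was how the Sirpa subsets differed. Among mature cells 6 of 42 members were higher in Sirpa-positive than Sirpa-negative cells, where 3.37% of all genes were, and 1 was lower, where 2.1% were. Among immature cells 10 members were higher, against 7.23% of all genes, and 1 was lower, against 4.39%. The 10 tested plexins and neuropilins gave most of these, with 5 higher in mature and 7 in immature cells and none (0) lower. Their median difference was 1.40 in mature and 1.91 in immature cells, beside -0.07 and -0.11 over all genes tested. Macrophage and monocyte markers moved the same way: their summed log2 level was 8.58 to 8.66 in Sirpa-positive mature against 3.99 to 4.19 in Sirpa-negative mature cells, and 8.91 to 9.30 in Sirpa-positive immature against 3.84 to 3.96 in Sirpa-negative immature cells. C1qc, Cd163 and Mrc1 were above background on neither array of either Sirpa-negative group. Of 7 markers of type 2 dendritic cells, Sirpa among them, 5 were higher in Sirpa-positive mature and 6 in Sirpa-positive immature cells. Of 6 tested markers of type 1 dendritic cells, 5 were lower in Sirpa-positive mature and 6 in Sirpa-positive immature cells. The T cell, endothelial and B cell lists also summed to higher levels in Sirpa-positive cells, by smaller margins. Such a sum depends mostly on the brightest genes of a list, and the medians did not follow it. The median difference of the tested genes was -0.45 (T cell), -0.35 (endothelial) and -0.21 (B cell) among mature cells. Among immature cells it was 0.09, 0.03 and -0.53, in the same order. T cell markers summed to 5.68 to 5.79 in Sirpa-positive mature against 5.38 to 5.64 in Sirpa-negative mature cells, and to 5.29 to 5.5 in Sirpa-positive immature against 3.62 to 3.66 in Sirpa-negative immature cells. The endothelial sums were 3.83 to 4.04 in Sirpa-positive mature against 3.32 to 3.82 in Sirpa-negative mature cells, and 3.28 to 3.45 in Sirpa-positive immature against 1.93 to 2.33 in Sirpa-negative immature cells. The B cell sums were 2.91 to 2.98 in Sirpa-positive mature against 1.13 to 1.38 in Sirpa-negative mature cells, and 2.24 to 2.28 in Sirpa-positive immature against 0.14 to 0.88 in Sirpa-negative immature cells. Of the 13 T cell markers, 2 passed as higher in Sirpa-positive immature cells, and 1 was higher and 2 lower in Sirpa-positive mature cells. Of 7 tested endothelial markers, 2 were higher and 1 lower in Sirpa-positive immature cells, and none (0) passed among mature cells. Of 4 tested B cell markers, 1 was higher and 1 lower in Sirpa-positive immature cells, and 1 was higher among mature cells. The part of macrophages, dendritic cell types, T cells, endothelial cells and B cells in the subset results was not tested.

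Nrp1, like Nrp2 a co-receptor of secreted semaphorins and vascular endothelial growth factors, had -0.79 and -1.07 in Sirpa-positive mature cells, against -3.17 and -3.66 in Sirpa-negative mature cells. It had -0.35 and -0.55 in Sirpa-positive immature cells, against -3.30 and -3.41 in Sirpa-negative immature cells. One array of each Sirpa-negative group was not well above background, and the subsets were far apart in both states. Nrp1 thus met the filter only through the Sirpa-positive pairs, so its place among the members higher there is not independent of the filter. Nrp1 was 5.61-fold higher among mature (2.49 ± 0.241, adjusted p = 0.00142) and 7.49-fold higher among immature cells (2.91 ± 0.241, adjusted p = 0.000393). It did not pass with maturation in either subset, with differences of -0.48 and -0.06. Nrp2 was higher in Sirpa-positive cells too, 2.60-fold among mature (1.38 ± 0.298, adjusted p = 0.0433) and 10.49-fold among immature cells (3.39 ± 0.298, adjusted p = 0.000497). The mature result passed in 10 of 20 alternative settings, and the second probe's 1.41 did not pass (adjusted p = 0.128).

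Plxna1, a receptor that in mouse dendritic cells pairs with Trem2 and Tyrobp and binds Sema6d, had 0.49 and 0.42 in Sirpa-positive mature cells, against -1.19 and -0.76 in Sirpa-negative mature cells. It had 1.31 and 1.18 in Sirpa-positive immature cells, against -0.85 and -0.82 in Sirpa-negative immature cells. The Sirpa-positive pairs were tight and clear of the Sirpa-negative ones. The gene was 2.69-fold (1.43 ± 0.214, adjusted p = 0.0101) and 4.24-fold higher (2.08 ± 0.214, adjusted p = 0.000958).

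Plxnb2, a receptor of class 4 semaphorins, had 2.02 and 1.84 in Sirpa-positive mature cells, against 0.44 and -0.33 in Sirpa-negative mature cells, and 2.74 and 2.57 in Sirpa-positive immature cells, against 1.10 and 0.74 in Sirpa-negative immature cells. It was 3.67-fold higher among mature (1.88 ± 0.294, adjusted p = 0.012) and 3.34-fold higher among immature cells (1.74 ± 0.294, adjusted p = 0.00893). Its ligand Sema4d followed the same order, 6.58-fold higher in Sirpa-positive than Sirpa-negative mature cells (2.72 ± 0.251, adjusted p = 0.00115) and 3.22-fold higher among immature cells (1.69 ± 0.251, adjusted p = 0.00514).

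Plxnd1 had 3.74 and 3.34 in Sirpa-positive mature cells, against the 2.01 and 1.30 of Sirpa-negative mature cells, and 3.58 and 3.13 in Sirpa-positive immature cells, against 0.05 and -0.16 in Sirpa-negative immature cells. It was 3.69-fold (1.88 ± 0.307, adjusted p = 0.0142) and 10.6-fold higher (3.41 ± 0.307, adjusted p = 0.000535). Here both probes passed, the second with 1.84 among mature (adjusted p = 0.00297) and 2.06 among immature cells (adjusted p = 0.000907).

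Plxna2, a plexin that binds class 6 semaphorins, had -1.77 and -3.72 in Sirpa-positive mature cells, the second not well above background, against -6.10 and -5.61 in Sirpa-negative mature cells. In immature cells it had -1.95 and -3.26 in the Sirpa-positive pair, against -5.42 and -6.50 in the Sirpa-negative pair. No Sirpa-negative array was well above background. Plxna2 met the filter only through the Sirpa-positive immature pair, the higher group of the comparison that passed. Its place among the 10 members higher there is therefore not independent of the filter. Plxna2 was at least 2.42-fold higher among immature cells (adjusted p = 0.0241), and at least 2.17-fold among mature cells, which did not pass (adjusted p = 0.0534). The immature result passed in 14 of 19 alternative settings. It was lost with dim probes kept (adjusted p = 0.0822) and otherwise in fits that left out 1 array. Over the settings the immature difference ran from 0.76 to 4.01 on the log2 scale, against 3.36 as fitted. The mature difference passed in 5 of 19 alternative settings, among them the title number set as a block (adjusted p = 0.0259), quantile scaling (adjusted p = 0.0278) and the authors' deposited values (adjusted p = 0.0389).

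Plxnc1, Efnb2 and Efna5 passed between the subsets in immature cells, each higher in Sirpa-positive cells. The folds were 2.37 for Plxnc1 (adjusted p = 0.00771), 7.69 for Efnb2 (adjusted p = 0.00134) and 4.54 for Efna5 (adjusted p = 0.00179). Among mature cells their differences were 0.19, 1.43 and 0.38 on the log2 scale and did not pass, with Efnb2 closest to the threshold (adjusted p = 0.0519). Efnb2 passed there in 9 of 19 alternative settings, among them the title number set as a block (adjusted p = 0.0254), quantile scaling (adjusted p = 0.0456) and the authors' deposited values (adjusted p = 0.00449). Its second probe, tested singly, gave 1.16 and passed (adjusted p = 0.0276). The test of the difference between the maturation effects, which is the same number as the difference between the subset effects, called none of them.

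Sema4f, a class 4 membrane semaphorin, was the 1 member lower in Sirpa-positive cells. It had -2.01 and -1.67 in Sirpa-positive mature cells, against 2.03 and 2.58 in Sirpa-negative mature cells. It had -0.32 and -1.40 in Sirpa-positive immature cells, against 2.83 and 2.61 in Sirpa-negative immature cells. Every Sirpa-negative array lay above every Sirpa-positive one by more than 2 units. Sema4f was 17.6-fold lower among mature (-4.14 ± 0.379, adjusted p = 0.00112) and 11.9-fold lower among immature cells (-3.58 ± 0.379, adjusted p = 0.00109), and both results passed in all 20 alternatives. Within slide rows 1 and 2 the difference was -4.04 and -4.25 among mature cells.

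**Figure D3:**
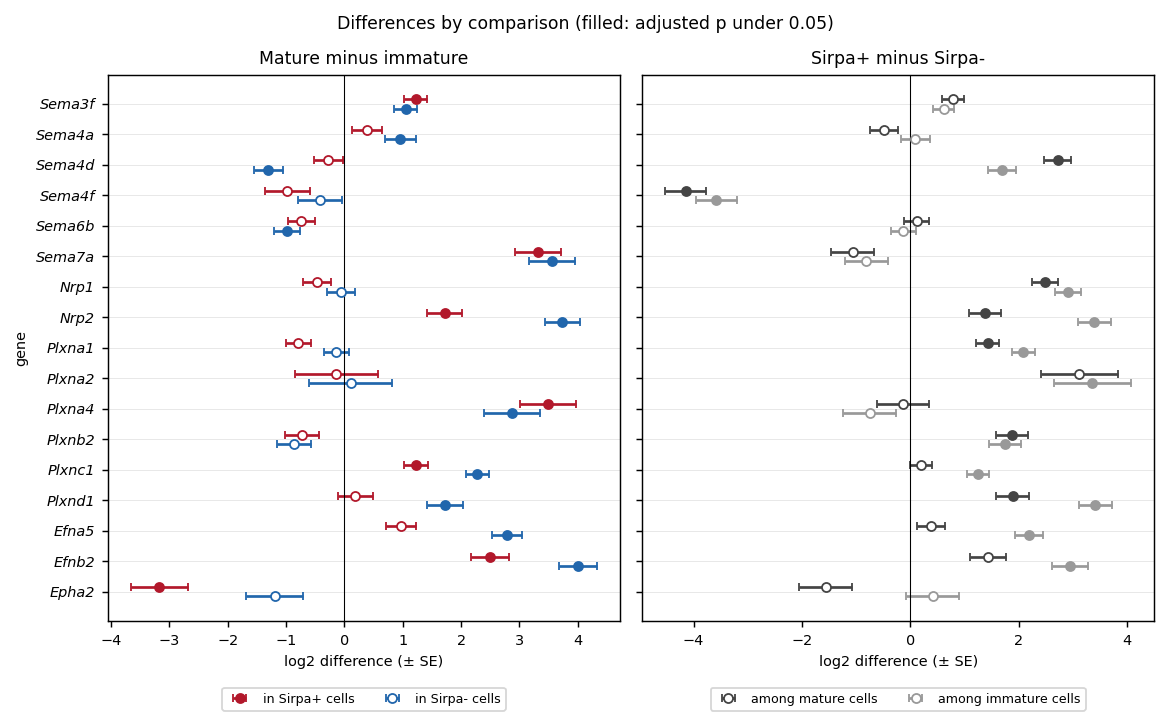
Log2 differences (x axis, points with SE bars) for the 17 members (y axis). The left panel gives mature minus immature in each subset and the right panel Sirpa-positive minus Sirpa-negative in each state; filled points have an adjusted p under 0.05. Plexins and neuropilins other than Plxna4 lie to the right in the subset panel, and Sema4f lies near -4.

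Single arrays changed these counts as well. Counts over all genes fell too in each fit named here. Among mature cells 4 members were called without Sirpa-positive mature array 1, 3 without array 6 and 4 without Sirpa-negative mature array 8. Among immature cells 7 were called without Sirpa-positive immature array 3.

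For 7 members 2 probes passed the filter. Those of Sema6d, a class 6 membrane semaphorin and ligand of plexin A1, disagreed. The brighter probe, which stood for the gene, had 6.99 and 8.08 in Sirpa-positive mature against 7.23 and 7.28 in Sirpa-positive immature cells, and 7.45 and 7.81 in Sirpa-negative mature against 7.59 and 8.04 in Sirpa-negative immature cells. The other probe had 3.85 and 3.85 in Sirpa-positive mature against 1.12 and 1.45 in Sirpa-positive immature cells, and 4.09 and 4.12 in Sirpa-negative mature against 1.43 and 1.5 in Sirpa-negative immature cells. On the second probe all mature arrays were more than 2 units above all immature arrays, and on the first the groups of each subset overlapped. With every probe tested singly, the second probe rose 5.90-fold (2.56 ± 0.202, adjusted p = 0.00157) and 6.23-fold (2.64 ± 0.202, adjusted p = 0.000691), while the first gave 0.28 and -0.18 (adjusted p = 0.759 and 0.797). Both probes carry the same transcript accession in the array file, so which of them reports the Sema6d transcript cannot be told from these values. The probes of Ephb4 and Ephb6 agreed in passing no comparison.

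**Figure D4:**
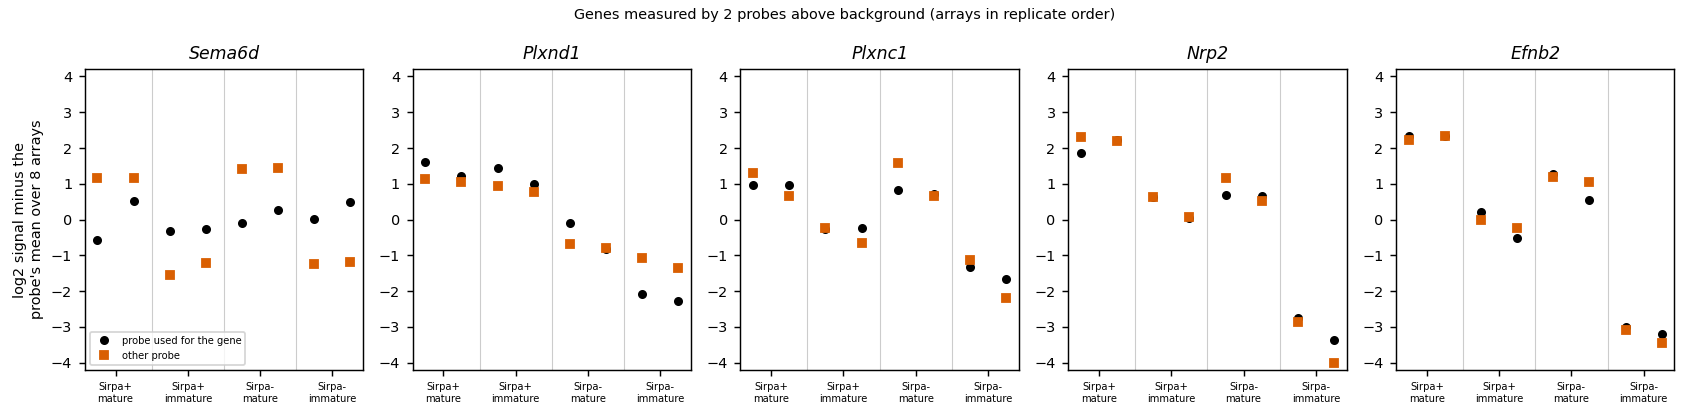
Log2 signal minus the probe's own mean over 8 arrays (y axis) for 5 genes with 2 probes above background, by group (x axis, 2 arrays each in replicate order). Circles are the probe used for the gene and squares the other probe. The Sema6d probes part in the mature groups, while those of Nrp2 and Efnb2 follow each other.

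The remaining 25 tested members passed in no comparison, as fitted with the probe that stood for each gene. Their differences lay between -0.84 and 1.13 with maturation in Sirpa-positive cells, between -0.97 and 1.90 in Sirpa-negative cells, between -1.01 and 0.75 between the subsets in mature cells and between -0.73 and 1.05 in immature cells. They were the semaphorins Sema3b, Sema3g, Sema4b, Sema4c, Sema5b, Sema6a, Sema6c and Sema6d, the plexins Plxnb1 and Plxnb3, the ephrins Efna2, Efna3, Efna4, Efnb1 and Efnb3, the receptors Epha1, Epha5, Epha6, Ephb2, Ephb3, Ephb4 and Ephb6, and Ntn1, Slit2 and Unc50. Sema4c (9.31 to 10.21 over all 8 arrays), Ephb3 (9.0 to 10.19) and Epha5 (8.70 to 9.71) were well above background everywhere and highest on Sirpa-positive mature array 6, as were 10 of the 42 tested members. That array had the lowest 75th percentile, which is subtracted from every value. A second Epha5 probe for the same transcript had -6.76 to -5.28 and was not well above background on any array. The Epha5 probes thus disagreed, and the level of this gene cannot be told from them.

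The wider pathway was described with 7 lists of 174 entries; 172 have a probe and 144 were tested. With maturation 18 of the 144 rose and 9 fell in Sirpa-positive cells, and 33 rose and 17 fell in Sirpa-negative cells. Between the subsets 10 were higher and 2 lower in Sirpa-positive mature cells, and 26 higher and 10 lower in Sirpa-positive immature cells. Set against the shares of all genes given above, these counts were above the background in both directions, except for genes lower in Sirpa-positive mature cells. The lists were chosen with earlier results of these data known, so this excess is not independent of that choice. The background also holds accessions without a symbol.

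Among other guidance ligands 3 of 13 tested genes (23.1%) rose in each subset, where 4.35% and 9.22% of all genes did, and none (0) fell. Flrt3, a membrane ligand of Unc5 receptors, was 12.01-fold higher in Sirpa-positive mature than immature cells (adjusted p = 0.000687) and at least 26.6-fold higher in Sirpa-negative ones (adjusted p = 0.000139). Mdk, the growth factor midkine, rose 2.90-fold and 3.73-fold. Among other receptors and co-receptors 3 of 15 (20%) rose and 1 (6.67%) fell in each subset, where 2.53% and 7.24% of all genes fell. Dscaml1, a cell adhesion molecule of the DSCAM family, rose 43.5-fold in Sirpa-positive cells (adjusted p = 0.00367), and Lrp8, a reelin receptor, 14.3-fold in Sirpa-negative cells (adjusted p = 0.000583). Kdr, a receptor of vascular endothelial growth factor that works with neuropilins, rose 7.70-fold in Sirpa-negative cells (adjusted p = 0.000799). Kdr is also on the endothelial list.

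Of 12 tested immune partners of semaphorins and plexins, 2 (16.7%) were higher in Sirpa-positive than Sirpa-negative mature cells, where 3.37% of all genes were, and 4 (33.3%) were higher and 1 (8.33%) lower among immature cells, where 7.23% and 4.39% were. Trem2, the partner of Plxna1, was at least 43.6-fold higher among mature (adjusted p = 7.3e-05) and at least 77.7-fold higher among immature cells (adjusted p = 2.37e-05). Trem2 was above background on no Sirpa-negative array and met the filter only through the Sirpa-positive pairs. Its place in these counts is therefore not independent of the filter. Flt1, another receptor of vascular endothelial growth factor, was 4.26-fold and 10.2-fold higher. Macrophages express Trem2 as well.

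Downstream of the receptors, 4 of 28 tested adaptors, kinases and phosphatases (14.3%, against 4.35% of all genes) rose in Sirpa-positive cells, among them Cdk5r1, the activator of the kinase Cdk5 (12.3-fold, adjusted p = 0.00483). In Sirpa-negative cells 11 rose (39.3%, against 9.22%) and 4 fell (14.3%, against 7.24%). Src, a tyrosine kinase, rose 12.5-fold there (adjusted p = 0.000445) and Abl1 fell 2.06-fold (adjusted p = 0.022). Of 33 small GTPases and regulators, 2 rose in Sirpa-positive cells (6.06%), a share near the 4.35% of all genes, and 4 fell (12.1%, against 2.53%). In Sirpa-negative cells 6 rose (18.2%, against 9.22%) and 5 fell (15.2%, against 7.24%). Rras2, a Ras-family GTPase, rose 2.56-fold and 6.43-fold, and Srgap3, a GTPase-activating protein that binds Robo, fell 4.29-fold and 5.44-fold.

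Of 35 tested effectors on the cytoskeleton, 4 rose (11.4%, against 4.35%) and 3 fell (8.57%, against 2.53%) in Sirpa-positive cells. In Sirpa-negative cells 7 rose and 7 fell (20% each, against 9.22% and 7.24%). Mical3, of a family that oxidises actin, rose 5.08-fold and 6.56-fold, and the actin bundler Fscn1, also a marker of mature dendritic cells, 12.9-fold and 38.9-fold. The kinase Pak1 fell 4.24-fold in Sirpa-positive cells (adjusted p = 0.012) and Mical2 4.19-fold in Sirpa-negative cells (adjusted p = 0.00208). Of 10 tested proteases that cut guidance proteins, 2 (20%) rose in each subset, where 4.35% and 9.22% of all genes did. None (0) fell. Among immature cells 3 (30%) were higher and 2 (20%) lower in Sirpa-positive cells, against 7.23% and 4.39% of all genes. Among mature cells 2 (20%) were higher and 1 (10%) lower, against 3.37% and 2.1%. In lists this short 1 gene moves the share by several percentage points. Mmp7 was at least 6.57-fold higher in Sirpa-positive mature than immature cells (adjusted p = 0.0154) and at least 5.84-fold higher in Sirpa-negative ones (adjusted p = 0.00365). Mmp7 was above background on no immature array and met the filter only through the mature pairs. Its place among the proteases that rose is therefore not independent of the filter. Mmp2 was at least 39.6-fold higher in Sirpa-positive than Sirpa-negative mature cells (adjusted p = 0.000147) and 99.3-fold higher among immature cells (adjusted p = 7.95e-05). Mmp2 likewise met the filter only through the Sirpa-positive pairs. Adam19 was lower in Sirpa-positive cells, by -1.32 among mature and -1.25 among immature cells on the log2 scale. Adam8 was lower among immature cells, by -1.53.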

How the data were processed

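Per the labels, total RNA of 8 sorted samples was amplified, labelled with Cy3 and hybridised to Agilent 1-colour arrays. The deposited scanner files hold spot intensity, per the file headers from Feature Extraction 10.7.3.1, while the submitters' processing notes name version 10.5, a conflict that remains. A second deposited table gives the authors' log2 values (scale inferred from its range, columns with medians of 5.99 to 6.01, no centring seen) and served as an alternative. Per the submitters' processing notes the authors used limma, with settings not stated there.

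Each processed signal was divided by its array's 75th percentile and taken to log2. Control spots and 110 to 270 spots per array marked as outliers were left out, and spots of a probe were averaged. Accessions were named through RefSeq (GRCm38.p6): 26582 probes received a symbol and 29099 did not. The filter kept 33694 probes, and each of 24149 genes or accessions was represented by its brightest probe. All 8 arrays entered a single limma fit (limma 3.58.1, R 4.3.3) of 4 group means with empirical Bayes variances (residual degrees of freedom, 4). Tests were two-sided, adjusted by Benjamini-Hochberg over all genes, with a threshold of 0.05. The arrays' number limits the precision.

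Members that passed in any comparison were named with all their values. From the other lists at most 2 risen and 2 fallen genes per comparison, those with the smallest p, were named. The members and lists were chosen with earlier results of these data known. For 2 list entries no match was made, and they are not analysed here. In simulated data for Sirpa-positive maturation (24101 genes), the fit found 0% of genes with a log2 change of 0.5, 2% at a change of 1, 48% at 2 and 84% at 3. Each change was given to 50 genes, whereas 1662 genes were called in the data. The adjusted p depends on how many genes change, so these percentages need not hold for the data. The files hold no mean pixel signal, so the normexp alternative (offset 50) used the median pixel signal and its background.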

Additional observations from a re-analysis of the deposited data

How the results depend on the processing

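Results were recomputed under 20 alternatives, 8 of which left out 1 array each. Of the 36 results that passed, 15 passed under every alternative that gave a value, and none (0) changed direction. Keeping dim probes gave 3 members called in Sirpa-positive maturation, 7 in Sirpa-negative maturation and 3 between the subsets in mature cells, with 37208 genes tested in place of 24149. Requiring signal above background on all arrays gave 7 between the subsets in immature cells. With trended and robust variances 1 member, Nrp2, passed the test of the difference between the maturation effects (-2.01, adjusted p = 0.0262), and 186 genes did in all. Over the arrays left out in turn, the members called ranged from 0 to 8 in Sirpa-positive maturation, 7 to 10 in Sirpa-negative maturation, 7 to 11 between the subsets in immature cells, 3 to 7 in mature cells and 0 to 1 for the difference between the effects. The 1 was Epha7 without Sirpa-negative immature array 7, which leaves its single bright array alone in its group. An array left alone in a group is assumed to vary like the other groups. All genes called in Sirpa-positive maturation numbered 1662, against 430 with dim probes kept and 198 without array 6. Scaling to the median moved the median difference of all genes in Sirpa-negative maturation to -0.13, against -0.01. Other causes were not tested. No title number occurs in more than 1 group, so the labels pair no samples. Numbers 1 to 4 and 5 to 8, taken as sets, and the slide rows each hold 1 array of every group and were fitted as blocks. With the number set as a block 7 members were called in Sirpa-positive maturation, 13 in Sirpa-negative maturation, 12 between the subsets in immature cells and 9 in mature cells. Over all genes 1977, 4628, 3210 and 1525 were called with this block, in the same order. Without it the counts over all genes were 1662, 3976, 2806 and 1323. Members added with the number set as a block were Plxnb2 (-0.86, adjusted p = 0.0421) and Sema5b (1.90, adjusted p = 0.0168) in Sirpa-negative maturation, Sema4b among immature cells (1.05, adjusted p = 0.0357), and Efnb2 and Plxna2 among mature cells. With the slide row as a block the member counts were 7, 10, 11 and 7, in the same order, and Sema4a did not pass (adjusted p = 0.0786). Over all genes the slide row block gave 1060, 2947, 2204 and 1009.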

Other observations

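Several members below the filter had a probe that was bright on a single array. One of the Epha7 probes had -0.05 on Sirpa-negative immature array 4, against -6.37 to -5.09 on the other 7 arrays, none of them well above background. The other Epha7 probes had -4.68 and -4.64 on that same array and were not well above background on any array. Ephb1 had -2.13 on Sirpa-positive mature array 6, against -6.70 to -5.40 elsewhere. Sema3e, the ligand of Plxnd1, had -1.24 on Sirpa-positive immature array 3, against -6.87 to -5.30 elsewhere. Each value is 1 array of a pair whose other array was at background.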
